A study of Drosophila melanogaster with 12 samples.

Results

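Transcripts of genes that handle copper, zinc and iron were followed in cells sorted as enterocytes, the absorptive cells of the Drosophila midgut. The list held 9 genes, taken by exact symbol: the metallothioneins MtnA, MtnB and MtnC, the copper importers Ctr1A and Ctr1B, the copper exporter ATP7, the ferritin subunits Fer1HCH and Fer2LCH, and the metal importer Mvl. The deposited count table, with 8802 genes, held 8 of these 9, and each of the 8 passed the filter on low counts. MtnB was not analysed here. RNA came from cells sorted by GFP out of guts of virgin females, 9 days old and kept for the last 6 days at 29 °C. The dissected stretch was the posterior midgut with regions R3, R4 and R5. Each genotype had 3 libraries, which the design text calls biological replicates, from pooled guts of several females. Every fly carried MyoIA-Gal4 with UAS-GFP, which acts in enterocytes, and tubGal80TS, which holds Gal4 off until the shift to 29 °C. The other 3 genotypes added UAS-SvbRNAi (svb RNAi), UAS-SvbACT::GFP (SvbACT, an activator form of the transcription factor Shavenbaby) or UAS-Svb3Kmut::GFP (SvbREP, named as the repressor form). Control flies came from a cross to Canton-S and carried none of these, so genotype and parental stock cannot be told apart in any comparison with control.

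Metals are needed as enzyme cofactors and are harmful in excess. Metallothioneins are small cysteine-rich proteins that bind copper, zinc and cadmium, and in flies their genes are switched on by the metal-responsive factor MTF-1. Copper enters cells through Ctr1 transporters and leaves the cytosol through the ATPase ATP7, while insect ferritin, built of heavy and light chains, is loaded with iron in the secretory pathway. In the fly gut, ferritin and metallothioneins are best known from the middle midgut, where the copper and iron cells lie.

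Library totals ran from 3209182 to 8881488 counts, so that 3 counts equal between 0.338 and 0.935 CPM, the unit of levels here (counts per 1e6 library counts). Libraries are numbered 1 to 3 within each genotype by the submitters' sample descriptions. The targeted gene ovo, which encodes Shavenbaby, had 78, 65 and 21 counts among libraries labelled svb RNAi and 63, 11 and 5 counts in control libraries, so ovo was not lower there, and these are called the libraries labelled svb RNAi. All 5 enterocyte markers were detected. Their sums were 643 to 933 CPM in control and 822 to 1089 CPM with the svb RNAi label. They were 696 to 800 CPM in SvbACT and 758 to 1105 CPM in SvbREP. The sums, mostly Myo31DF and Myo61F, hide mex1. It fell with the svb RNAi label, to 12.5 to 17.7 CPM against 24.8 to 33.9 CPM in control (edgeR adjusted p 0.0445). It had 9.63 to 19.99 CPM in SvbREP (adjusted p 0.121) and overlapped control in SvbACT. The other 4 did not pass 0.05 with the svb RNAi label, Myo31DF being lower (adjusted p 0.0515) and the rest higher. Progenitor markers (6 of 6) summed to 5343 to 5643 CPM among libraries labelled svb RNAi, 5339 to 8820 in SvbACT and 6331 to 6828 in SvbREP, against 7649 to 8019 CPM in control. In every library this sum was above that of the enterocyte markers, though sums of different lists depend on the genes listed. The share of progenitor cells in the sorted cells was not tested. Copper cell markers (4 of 4) summed to 138 to 172 CPM among libraries labelled svb RNAi, 127 to 155 in SvbACT, 135 to 293 in SvbREP and 120 to 155 in control. Enteroendocrine markers (8 of 8) summed to 351 to 862 CPM among libraries labelled svb RNAi, 168 to 331 in SvbACT and 149 to 220 in SvbREP, against 603 to 2092 CPM in control. Visceral muscle markers (7 of 7) summed to 11.96 to 461, 37.7 to 166 and 24.4 to 211 CPM in these genotypes, against 123 to 772 CPM in control. Of other marker genes, 3 of 6 for hemocytes and 1 of 3 for Malpighian tubules were in the analysed table, and Hml, a defining hemocyte gene, was at 0 counts in 7 of 12 libraries. It reached 27 counts (8.41 CPM) in library 3 labelled svb RNAi and 102 counts (13.3 CPM) in SvbREP library 1, against at most 3 Hml counts in the other libraries. Of the other hemocyte list genes in the table, Ppn was highest in these libraries and srp was not. Ppn had 52.3 and 23.4 CPM there, though control library 3 came close at 23.3 CPM. The gene srp had 25.9 and 25.5 CPM there, and 59.0 CPM in control library 1. In sorted bulk cells, fewer cells of a type and less RNA per cell cannot be told apart.

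Coordinates are from Ensembl release 115 on BDGP6.54, which has dm6 coordinates, the build named in the submitters' processing notes. MtnA lies at chr3R:9783407-9784370 on the minus strand and MtnC at chr3R:20360308-20360634 on the plus strand. Ctr1A is at chrX:6661647-6668258 (plus), Ctr1B at chr3R:8317612-8319205 (plus) and ATP7 at chrX:11855022-11864754 (plus). Fer1HCH (chr3R:30385573-30388178, minus) and Fer2LCH (chr3R:30387804-30390584, plus) lie head to head, their gene spans overlap by 375 nt and their exons share 118 nt. Mvl is at chr3R:21051383-21060800 on the minus strand. All are protein-coding genes. Exons of ATP7 share 104 nt with Nrd1 on the opposite strand, and Ctr1B shares 185 nt with lncRNA:CR45215 on the same strand. The strand setting of the counting is not given in the sources used here, so reads from such shared stretches are uncertain in origin.

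Per length of annotated exon, ferritin led the group. In control cells Fer2LCH stood at 278 ± 30.8 CPM per kb and Fer1HCH at 198 ± 26.4 CPM per kb (SD, n = 3). MtnC followed at 58.8 ± 40.3 and MtnA at 58.2 ± 7.39 CPM per kb, a pair of levels that did not differ beyond their spread. ATP7 stood at 17.1 ± 1.83 CPM per kb and Ctr1A at 10.5 ± 1.78. The lowest were Ctr1B at 7.29 ± 3.96 and Mvl at 6.88 ± 0.739 CPM per kb, again within their spread, and Ctr1A lay within the spread of Ctr1B.

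**Figure D1:**
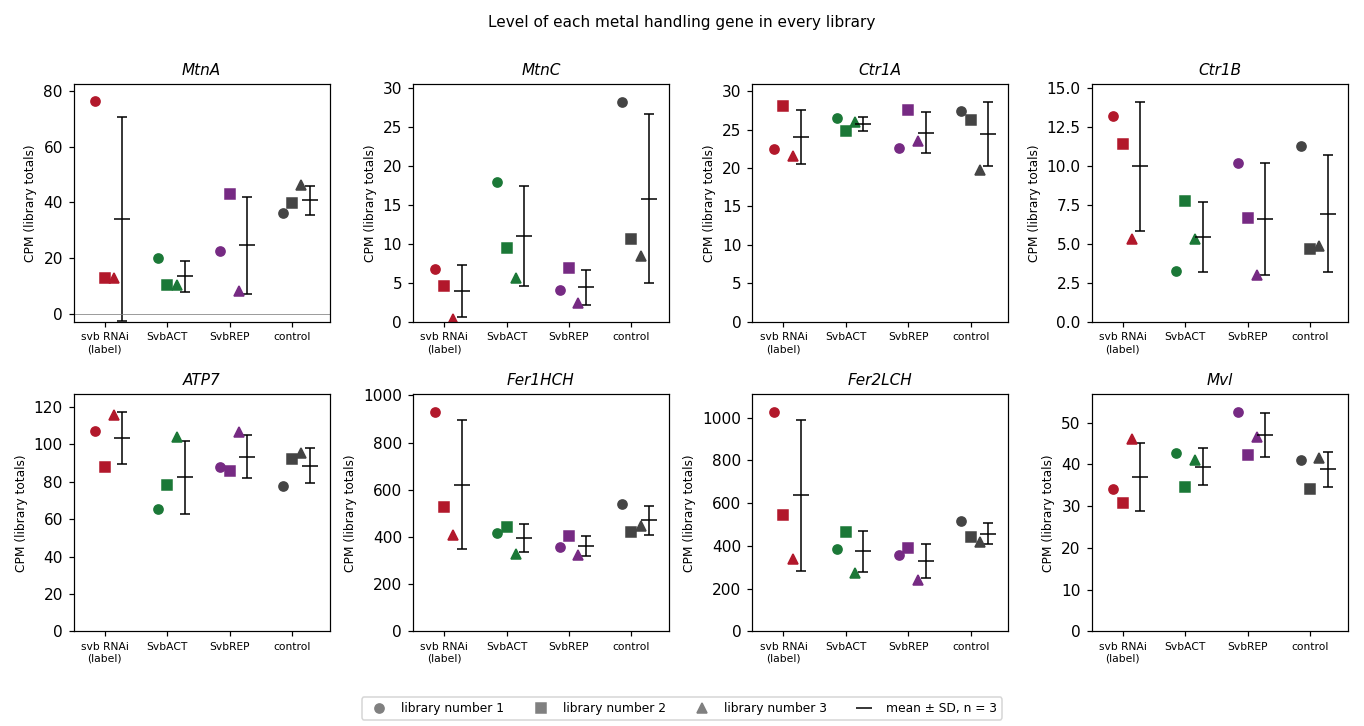
Level of 8 metal handling genes in CPM scaled to library totals (vertical axis, linear, a scale for each gene) in the 12 libraries by genotype; symbols give the library number and bars the mean ± SD of 3 libraries. Among libraries labelled svb RNAi the highest is 21.8 times the lowest for MtnC and 5.97 times for MtnA, whereas the 3 MtnA control values lie within 1.28-fold and Ctr1A stays between 19.7 and 28.1 CPM in the 12 libraries.

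None of the 8 genes differed between genotypes by edgeR's quasi-likelihood test at a Benjamini-Hochberg adjusted p under 0.05 over 8296 genes. The count was 0 of 8 among libraries labelled svb RNAi, where 11.1% of all tested genes were called, 0 of 8 in SvbACT (1.54% called), 0 of 8 in SvbREP (1.21%) and 0 of 8 between SvbACT and SvbREP (0.0723%). Without adjustment, p was under 0.05 for 1 of 8 genes (28.1% of all genes), 1 of 8 (13.6%), 1 of 8 (13.0%) and 0 of 8 (5.12%) in these comparisons, and DESeq2 called 1 of 8 (15.5% of genes), 0 (3.95%), 0 (3.32%) and 0 (0.495%). The median log2 fold change of the 8 genes was -0.06 among libraries labelled svb RNAi, -0.26 in SvbACT, -0.23 in SvbREP and -0.04 between SvbACT and SvbREP, beside 0.01, 0.02, 0.03 and -0.01 for all tested genes. Fold changes are on the TMM scale (a scaling that centres most genes), and scaling to library totals instead moves the median among libraries labelled svb RNAi to 0.16 for all genes and to 0.10 for the 8, which turns its sign. The 3 comparisons with control share the control libraries and are not independent of one another.

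**Figure D2:**
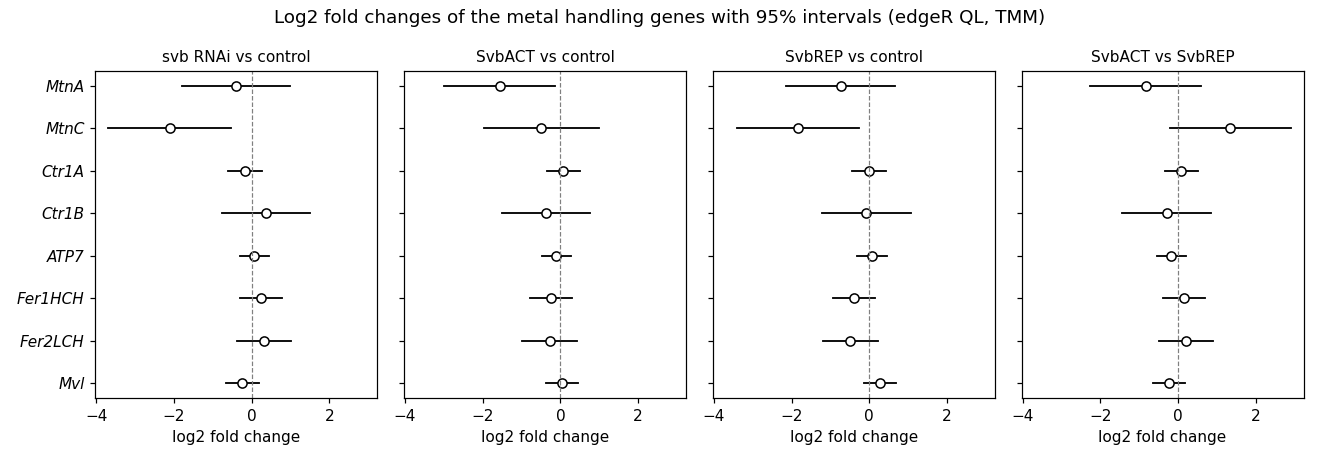
Log2 fold change (horizontal axis) of 8 metal handling genes in 4 comparisons, with the first-named genotype over the second; circles are estimates and lines 95% intervals from edgeR. No gene passed an adjusted p of 0.05 (all circles open), and the widest intervals belong to MtnA, MtnC and Ctr1B.

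MtnC, a metallothionein, was the member furthest below control among libraries labelled svb RNAi and in SvbREP. It had 33, 38 and 1 counts in libraries 1, 2 and 3 labelled svb RNAi, or 6.80, 4.62 and 0.312 CPM. In SvbACT it had 133, 84 and 26 counts (18.0, 9.46 and 5.54 CPM), and in SvbREP 31, 37 and 8 counts (4.05, 6.85 and 2.38 CPM). Control libraries had 157, 57 and 33 counts (28.2, 10.7 and 8.44 CPM). Every library labelled svb RNAi and every SvbREP library lay below all 3 control libraries, whereas SvbACT overlapped control. The mean was 3.91 ± 3.30 CPM among libraries labelled svb RNAi and 15.8 ± 10.8 CPM in control (SD, n = 3 each), a log2 fold change of -2.12 (SE 0.73, 95% interval -3.70 to -0.53, edgeR adjusted p 0.0804). In SvbREP it averaged 4.43 ± 2.26 CPM, and the log2 fold change was -1.84 (SE 0.73, 95% interval -3.41 to -0.27, adjusted p 0.296). In SvbACT it averaged 10.98 ± 6.35 CPM, with a log2 fold change of -0.50 (95% interval -1.98 to 0.98, adjusted p 0.809).

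Libraries that share a description number deviated together from their genotype means, so a fit with the number as a block was also made. With that replicate block MtnC fell among libraries labelled svb RNAi (log2 fold change -2.21, SE 0.49, adjusted p 0.00801), in a fit that called 19.6% of all tested genes and 9.90% as lower. In SvbREP the blocked value was -1.76 (adjusted p 0.0705), and in SvbACT it was -0.50 (adjusted p 0.599). MtnC was lower than control in 3 of 3 same-numbered pairs in each of these genotypes. With the svb RNAi label and in SvbREP the ranges did not overlap control, so any pairing gives 3 of 3. No member was called by the blocked fit in SvbACT, SvbREP or between them, where it called 3.86%, 3.56% and 0.386% of genes. The authors' deposited table marks MtnC as lower in the svb RNAi comparison, where it calls 14.0% of its 8802 genes, and marks none of the other 7 members there and no member in SvbACT (3.18% called) or SvbREP (2.93% called). Over 19 alternatives the adjusted p of MtnC among libraries labelled svb RNAi ran from 0.00801 to 0.329, and it was highest without control library 1, which had the most MtnC (log2 fold change -1.38). Without that library the log2 fold change was -1.11 in SvbREP and turned to 0.24 in SvbACT. Without library 3 labelled svb RNAi, which had the most Hml counts of that label, it was -1.64 (adjusted p 0.159) for that label, and without SvbREP library 1 it was -1.76 (adjusted p 0.360) in SvbREP. MtnC is a short gene of a family with similar members, and the handling of reads with several matches is not given in the sources used here. Enteroendocrine and visceral muscle markers had lower median sums than control in the 3 other genotypes. The enteroendocrine medians were 609 CPM with the svb RNAi label, 244 in SvbACT, 209 in SvbREP and 1339 in control, and the muscle medians 102, 100, 112 and 693 CPM in the same order. Progenitor sums lay below control with the svb RNAi label and in SvbREP. The sums hide markers that went the other way with the svb RNAi label, where the progenitor gene Dl rose (log2 fold change 1.39, adjusted p 0.00289) and the enteroendocrine gene Orcokinin rose (2.42, adjusted p 0.0354). Dl had 288 to 451 CPM in SvbREP against 154 to 220 CPM in control (0.96, adjusted p 0.0629), and it rose in SvbACT (1.27, adjusted p 0.0200). The part of these cells in the MtnC values was not tested. The summed copper cell markers, mostly dve, overlapped control in each genotype. Single copper cell markers did not all do so: in SvbACT lab had 7.69, 9.57 and 7.45 CPM against 5.38, 3.74 and 0.767 CPM in control (adjusted p 0.451), and ct had 1.48, 1.01 and 0.426 CPM against 2.69, 4.11 and 4.86 CPM in control (adjusted p 0.312).

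MtnA, a metallothionein with higher CPM than MtnC, was uneven among libraries labelled svb RNAi. These had 76.3, 12.9 and 12.8 CPM in libraries 1, 2 and 3. SvbACT libraries had 19.8, 10.2 and 10.2 CPM and SvbREP libraries 22.6, 43.0 and 8.05 CPM. Control libraries stood close together at 36.1, 39.8 and 46.3 CPM. Only SvbACT lay wholly below control, with 13.4 ± 5.55 CPM in SvbACT and 40.7 ± 5.17 CPM in control (SD, n = 3 each). The log2 fold change was -1.57 (SE 0.66, 95% interval -3.00 to -0.13) and was not past the threshold in the fit to all 12 libraries (edgeR adjusted p 0.323). It passed in a fit of these 6 libraries alone (-1.57, SE 0.31, adjusted p 0.0395), where 1.79% of genes were called, and the adjusted p ran from 0.0395 to 0.685 over 20 alternatives. Its log2 fold change among libraries labelled svb RNAi was -0.41 (95% interval -1.81 to 0.98, adjusted p 0.724). There library 1 was above all control libraries while libraries 2 and 3 were below them, and the log2 fold change without library 1 was -1.81 (adjusted p 0.0604). In SvbREP it was -0.74 (95% interval -2.14 to 0.66, adjusted p 0.663). Between SvbACT and SvbREP, MtnA differed by -0.83 (95% interval -2.26 to 0.60) and MtnC by 1.34 (95% interval -0.21 to 2.90), each with an adjusted p of 0.999.

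The copper importer Ctr1A had the narrowest range of the list, 1.43-fold over the 12 libraries. It had 22.5, 28.1 and 21.5 CPM among libraries labelled svb RNAi, 26.5, 24.8 and 26.0 in SvbACT, 22.6, 27.6 and 23.5 in SvbREP, and 27.5, 26.2 and 19.7 CPM in control. The genotypes overlapped throughout, and log2 fold changes against control were -0.18 (95% interval -0.61 to 0.25) among libraries labelled svb RNAi, 0.08 (-0.35 to 0.50) in SvbACT and -0.01 (-0.44 to 0.42) in SvbREP, the last turning positive by library totals. Ctr1B, the importer best known for uptake when copper is scarce, was lower and more variable. It had 13.2, 11.4 and 5.30 CPM among libraries labelled svb RNAi, 3.24, 7.77 and 5.32 in SvbACT, 10.2, 6.67 and 2.98 in SvbREP, and 11.3, 4.68 and 4.86 CPM in control. Its counts ran from 10 to 94. The intervals against control were -0.76 to 1.49 with the svb RNAi label, -1.51 to 0.77 in SvbACT and -1.21 to 1.07 in SvbREP. On the log2 scale they do not set aside a rise of 1 with that label, a fall of 1 in SvbACT or either in SvbREP.

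ATP7, which moves copper into the secretory pathway and out of the cell, stood at 107, 87.9 and 115 CPM among libraries labelled svb RNAi. It had 65.3, 78.0 and 103 CPM in SvbACT, 87.8, 85.5 and 106 CPM in SvbREP, and 77.7, 92.2 and 95.4 CPM in control. The ranges overlapped in each comparison. Its log2 fold changes were 0.07 (95% interval -0.31 to 0.44), -0.11 (-0.48 to 0.27) and 0.07 (-0.31 to 0.44) against control in these genotypes, with edgeR adjusted p-values of 0.844, 0.842 and 0.904.

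The ferritin subunits, which together form the iron storage shell, were the most abundant transcripts of the list and moved as a pair. Fer1HCH, the heavy chain with the iron-oxidizing site, had 931, 526 and 410 CPM among libraries labelled svb RNAi and 416, 444 and 329 CPM in SvbACT. It had 358, 406 and 322 CPM in SvbREP and 541, 422 and 447 CPM in control. Fer2LCH, the light chain, had 1029, 545 and 341 CPM among libraries labelled svb RNAi and 387, 463 and 275 CPM in SvbACT. It had 360, 392 and 242 CPM in SvbREP and 515, 442 and 417 CPM in control. Library 1 labelled svb RNAi was the highest of the 12 for both, and every SvbREP library lay below every control library for both. In SvbREP the log2 fold change was -0.39 for Fer1HCH (SE 0.25, 95% interval -0.93 to 0.15, edgeR adjusted p 0.524) and -0.48 for Fer2LCH (SE 0.33, 95% interval -1.19 to 0.22, adjusted p 0.552). In SvbACT they were -0.24 (-0.78 to 0.30) and -0.28 (-0.98 to 0.42). Among libraries labelled svb RNAi they were 0.25 (-0.29 to 0.78) and 0.32 (-0.38 to 1.02), and without library 1 they turned to -0.15 and -0.19.

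Across the 12 libraries Fer1HCH ranged 2.89-fold and Fer2LCH 4.26-fold, whereas the ratio of Fer2LCH to Fer1HCH counts stayed between 0.750 and 1.10, a 1.47-fold range. On log2(CPM + 1), Fer2LCH had the highest Pearson r with Fer1HCH of 8295 other genes over the 12 libraries (0.97, and 0.94 without library 1 labelled svb RNAi and control library 1, those furthest from the median Fer1HCH level). Deviations from genotype means gave 0.96. Outside the list the most alike genes were Gdi (r 0.93), Atg3 (0.91) and inc (0.91), which fell to 0.71, 0.79 and 0.84 without those libraries. These genes were picked for their likeness, so no test is given, and points from 1 library share its depth and preparation.

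**Figure D3:**
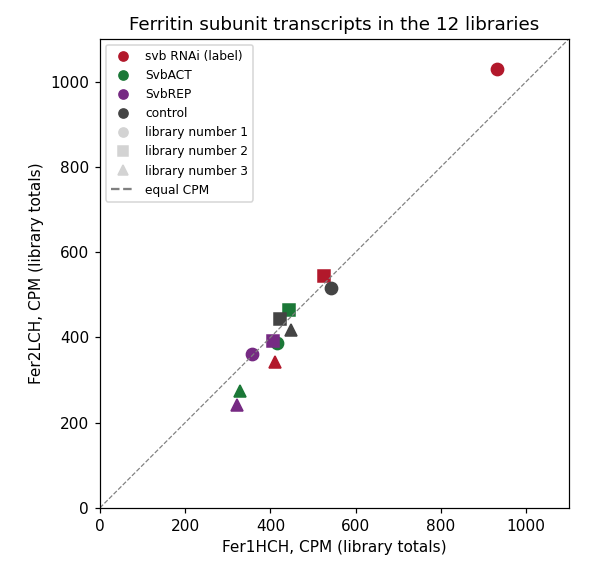
Fer2LCH against Fer1HCH in CPM scaled to library totals (both axes linear, from 0) in the 12 libraries; colours give genotype, symbols the library number, and the dashed line equal CPM. The points lie along the line, from SvbREP library 3 (322 and 242 CPM) to library 1 labelled svb RNAi (931 and 1029 CPM).

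Mvl, an NRAMP-family importer of iron and manganese, had 34.0, 30.8 and 46.1 CPM among libraries labelled svb RNAi and 42.8, 34.6 and 41.1 CPM in SvbACT. It had 52.7, 42.2 and 46.5 CPM in SvbREP and 41.1, 34.0 and 41.4 CPM in control. Only the SvbREP libraries lay wholly above control, at 47.1 ± 5.25 CPM in SvbREP and 38.9 ± 4.18 CPM in control (SD, n = 3 each), a log2 fold change of 0.27 (95% interval -0.15 to 0.68, edgeR adjusted p 0.578). It was -0.24 (-0.66 to 0.18) among libraries labelled svb RNAi and 0.03 (-0.38 to 0.45) in SvbACT.

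By library ranges, 4 of 8 genes did not overlap control in SvbREP (MtnC and both ferritins lower, Mvl higher), where 20.8% of all tested genes did not (9.88% lower, 10.9% higher). The ferritin genes are neighbours with shared exon sequence and do not count as independent. The numbers were 1 of 8 among libraries labelled svb RNAi (37.6% of all tested genes, 11.9% lower), 1 of 8 in SvbACT (19.5%, 11.6% lower) and 0 of 8 between SvbACT and SvbREP (9.14%).

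Library number went with some levels across genotypes. Library 3 was the lowest of its genotype in 4 of 4 genotypes for MtnC and for Fer2LCH, a pattern held by 3.58% of tested genes. For ATP7 it was the highest in 4 of 4, a pattern held by 3.95%. Library 3 also had the smallest total in each genotype, 3209182 to 4695678 counts against 4850077 to 8881488 in the other libraries of the 3 non-control genotypes and 5346713 to 5572547 in the other control libraries. The part of depth in these levels was not tested. The labels say that replicates were made on different days and do not say whether a number marks a shared day.

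The remaining metal genes were taken as a list of 45 symbols, of which 35 were in the table and 34 passed the filter. Among libraries labelled svb RNAi 1 of 34 rose and 2 fell, beside 4.91% of all genes called higher and 6.23% called lower. In SvbACT, in SvbREP and between SvbACT and SvbREP, 0 of 34 were called by edgeR, beside 1.54%, 1.21% and 0.0723% of all tested genes. DESeq2 also called 0 there, beside 3.95%, 3.32% and 0.495%. Unadjusted edgeR p was under 0.05 for 2, 3 and 0 of the 34, beside 13.6%, 13.0% and 5.12% of all tested genes. Among libraries labelled svb RNAi this held for 8 of 34, beside 28.1%. The median log2 fold change of the 34 was 0.10 among libraries labelled svb RNAi, 0.00058 in SvbACT, 0.11 in SvbREP and -0.09 between SvbACT and SvbREP, beside 0.01, 0.02, 0.03 and -0.01 for all tested genes. By library totals the first was 0.26, beside 0.16 for all tested genes. By library totals the split among libraries labelled svb RNAi was 2 higher and 1 lower. The higher genes were Cox17 and FeCH (edgeR adjusted p 0.0236 and 0.0456), and the lower was Tsf2 (0.0454). Zip102B, called in the main fit, was not called on that scale. The share of all genes called on that scale is not given here. With the replicate block the split was 4 higher and 2 lower of 34, in a fit that called 19.6% of all tested genes, so the count is near the background. The added calls were Irp-1B (0.59, adjusted p 0.0141), Nfs1 (0.75, adjusted p 0.0128) and FeCH (0.57, adjusted p 0.0437), named after their values were seen.

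Cox17, a copper chaperone for cytochrome c oxidase, rose among libraries labelled svb RNAi. It had 26.6, 37.1 and 24.6 CPM there against 11.1, 11.97 and 13.04 CPM in control, with no overlap. The log2 fold change was 1.14 (SE 0.31, edgeR adjusted p 0.0349). Tsf2, a transferrin-family protein of septate junctions, fell, with 24.5, 21.0 and 19.3 CPM among libraries labelled svb RNAi and 35.0, 37.2 and 36.1 CPM in control (log2 fold change -0.89, SE 0.22, adjusted p 0.0231). Zip102B, a ZIP-family zinc transporter, fell with 38.6, 50.1 and 37.4 CPM there and 83.1, 52.9 and 60.4 CPM in control (-0.79, SE 0.23, adjusted p 0.0444). SvbACT also lay wholly above control for Cox17 (log2 fold change 0.66, edgeR adjusted p 0.384) and wholly below it for Tsf2 (-0.32, adjusted p 0.570). SvbREP overlapped control for both genes. Leaving out each of the 12 libraries in turn kept the call with the svb RNAi label in 6 of 12 fits for Cox17, 7 of 12 for Tsf2 and 6 of 12 for Zip102B, with adjusted p-values up to 0.118, 0.0784 and 0.198. Calls were lost without svb RNAi libraries 1, 2 or 3 or any control library for Cox17, and without svb RNAi libraries 2 or 3 or any control library for Tsf2. For Zip102B they were lost without svb RNAi libraries 1 or 3, control libraries 1 or 3, SvbACT library 3 or SvbREP library 2. Of the 8 alternatives that keep all libraries, Cox17 and Tsf2 were called in 8 and Zip102B in 6. By library totals, the scale of the levels here, Zip102B had a log2 fold change of -0.64 (edgeR adjusted p 0.0691).

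**Figure D4:**
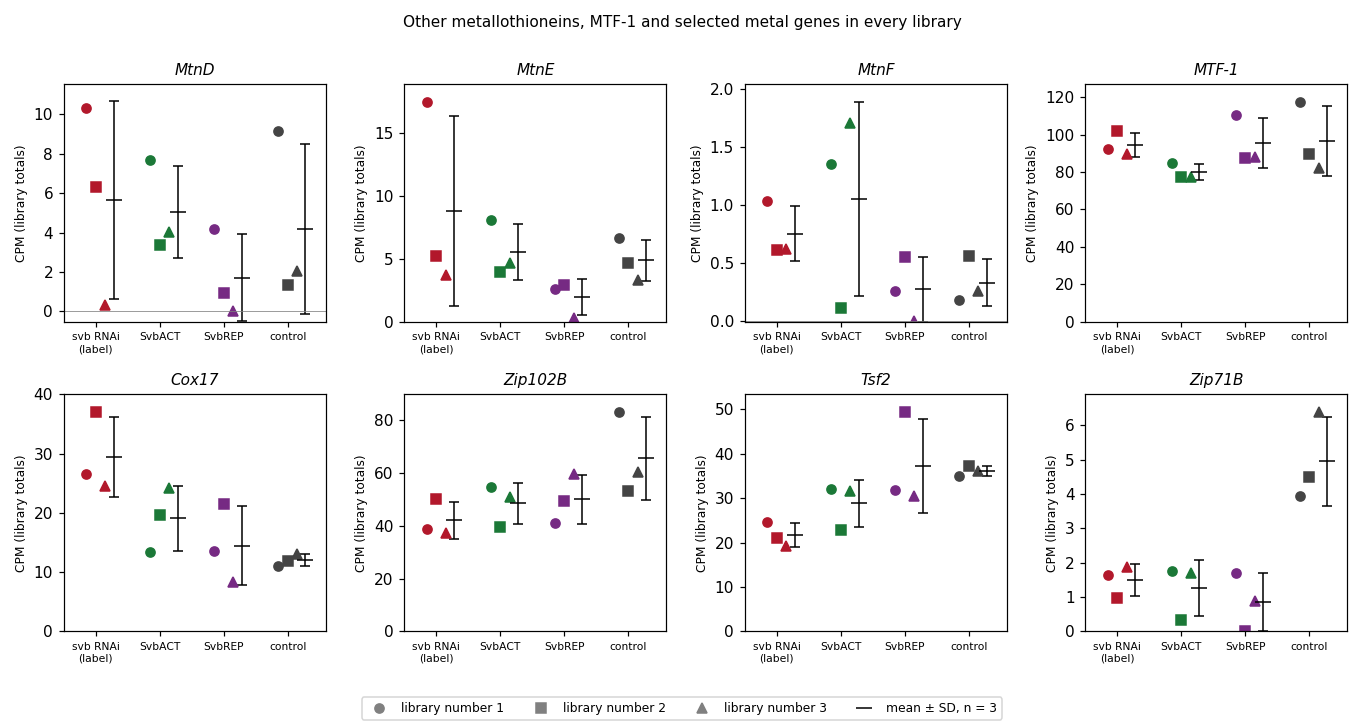
Levels in CPM scaled to library totals (vertical axis, linear, a scale for each gene) of the other metallothioneins, MTF-1 and 4 further metal genes in the 12 libraries; symbols give the library number and bars the mean ± SD of 3 libraries. Cox17 is above control and Tsf2 below it among libraries labelled svb RNAi and in SvbACT, and MtnE is below control in every SvbREP library.

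The other metallothioneins were low and uneven. MtnE lies 257 nt from MtnD on the opposite strand, head to head, on chromosome 3R. MtnE had 17.5, 5.23 and 3.74 CPM among libraries labelled svb RNAi, 8.10, 3.94 and 4.69 in SvbACT, 2.61, 2.96 and 0.298 in SvbREP, and 6.64, 4.68 and 3.33 CPM in control. All SvbREP libraries were below control and below SvbACT, with log2 fold changes of -1.27 against control (95% interval -2.79 to 0.25, edgeR adjusted p 0.469) and, for SvbACT over SvbREP, 1.47 (95% interval -0.04 to 2.97, adjusted p 0.983). MtnD had 50, 52 and 1 counts among libraries labelled svb RNAi, 57, 30 and 19 in SvbACT, 32, 5 and 0 in SvbREP, and 51, 7 and 8 in control. The 0 in SvbREP library 3 allows up to 0.894 CPM at the depth of that library, counting error only. MtnF had at most 10 counts in a library and did not pass the filter. MTF-1, the activator of these genes, stood at 92.2, 102 and 89.7 CPM among libraries labelled svb RNAi, 84.9, 77.6 and 77.3 in SvbACT, 111, 87.4 and 87.9 in SvbREP, and 118, 89.8 and 82.1 CPM in control, with log2 fold changes against control of -0.19, -0.27 and -0.03 and adjusted p-values of 0.516, 0.537 and 0.958.

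Zip71B, a ZIP-family gene named after its values were seen, was the lowest of the list against control in SvbREP. It had 8, 8 and 6 counts among libraries labelled svb RNAi, 13, 3 and 8 in SvbACT, 13, 0 and 3 in SvbREP, and 22, 24 and 25 in control. The ranges in CPM did not overlap control in any of the 3 genotypes, and the log2 fold changes were -1.90, -1.96 and -2.43 (edgeR adjusted p 0.169, 0.337 and 0.260). These comparisons share the control libraries.

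**Figure D5:**
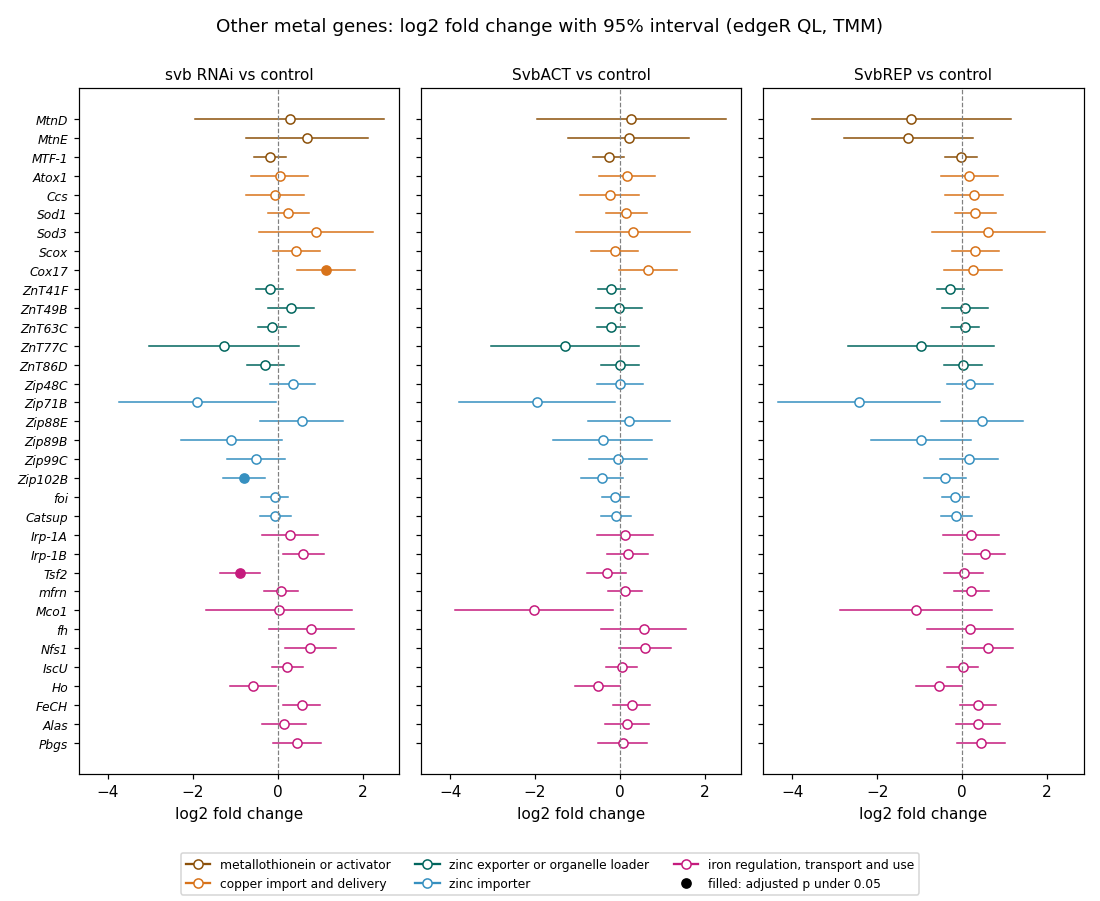
Log2 fold change against control (horizontal axis) of 34 other metal genes in 3 genotypes, grouped by role in colour; lines are 95% intervals from edgeR and filled circles mark an adjusted p under 0.05. The filled circles are Cox17, Zip102B and Tsf2 among libraries labelled svb RNAi.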

How the data were processed

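RNA of 12 libraries (4 genotypes, 3 each) was read as single reads of 100 nt, per the labels' protocols. The authors deposited whole-number counts per gene and a score of -1, 0 or 1 for each comparison with control. The submitters' processing notes name dm6, FastQC 0.11.5, STAR 2.5.2b, HTSeq 0.6.0 and edgeR. Annotation, strand setting, use of molecular identifiers and the choice of genes are not given in the sources used here. A second header in the table names 12 further columns without values, which were not used.

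The tests used edgeR 4.0.16 under R 4.3.3: filterByExpr with a minimum count of 10 (8296 of 8802 genes kept), TMM factors (1.07 to 1.09 in the libraries labelled svb RNAi, 0.914 to 1.00 in the others), and 1 quasi-likelihood fit to the 12 libraries with genotype as the factor, tested on simulated data. Tests were two-sided, and adjusted p-values are Benjamini-Hochberg over all tested genes. SEs derive from the F statistic. Levels are CPM by library totals. By rule, the 9 members are named, other metal genes where called, and, since no member was called, the 3 genes with the highest Pearson r with the member of highest mean CPM. The other metallothioneins, MTF-1 and Zip71B are named outside that rule, and Cox17 and MtnF were matched through the gene IDs of the reference table. The members and lists were chosen with earlier results of these data known. DESeq2 1.42.0 was an alternative, with other scalings, filters, blocks and left-out libraries.

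Numbers in the descriptions and titles differ for the libraries labelled svb RNAi. For the description numbers the correlations of same-numbered deviations from genotype means were 0.125 to 0.430 in 18 of 18 pairs, each above 0.1, so libraries of the same number deviated alike. Library 3 was the smallest in each genotype, and the part of depth in these correlations was not tested. For the title numbers 9 of 18 were above 0.1. These 9 are the pairs among SvbACT, SvbREP and control, whose numbers are the same in titles and descriptions. Precision is limited by 3 libraries a genotype, and floors of 3 counts cover counting error only.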

Additional observations from a re-analysis of the deposited data

How the results depend on the processing

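The members called were 0 in all 4 comparisons and in each of the 12 fits without 1 library (0 to 0). They were 1 among libraries labelled svb RNAi with DESeq2 and with the replicate block by description number (MtnC, adjusted p 0.0183 and 0.00801), and 1 in SvbACT with only the 2 genotypes compared (MtnA), a fit that called 142 genes (1.79%). Of 248 member values under the 8 alternatives that keep all libraries, 1 changed sign (Ctr1A in SvbREP by library totals, 0.0047). MtnC and Ctr1B gave no value under a mean of at least 10 CPM. Over the fits without 1 library 19 of 384 changed sign, none of them called. Among libraries labelled svb RNAi these values ran from -0.012 to 0.17 for ATP7, -0.15 to 0.48 for Fer1HCH and -0.19 to 0.63 for Fer2LCH. In SvbACT they ran from -1.14 to 0.24 for MtnC, -0.061 to 0.17 for Ctr1A, -0.71 to 0.19 for Ctr1B and -0.10 to 0.14 for Mvl. In SvbREP they ran from -0.15 to 0.084 for Ctr1A, -0.53 to 0.48 for Ctr1B and -0.053 to 0.15 for ATP7, and for Ctr1B between SvbACT and SvbREP from -0.64 to 0.16. Each group's mean level moved by less than 1 SD with TMM-scaled CPM.

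Over all genes, 924 were called among libraries labelled svb RNAi, 128 in SvbACT, 100 in SvbREP and 6 between SvbACT and SvbREP. With a replicate block by description number there were 1629, 320, 295 and 32. With the block from the titles SvbACT had 69, SvbREP 44 and the comparison of both 10. DESeq2 gave 327, 275 and 41 in these 3, a mean of at least 10 CPM gave 68 in SvbACT and 10 between SvbACT and SvbREP, and only the 2 genotypes compared gave 47 in SvbREP. Without 1 library the counts ran from 408 (without control library 1) to 1103, from 22 (without SvbACT library 2) to 149, from 18 (without control library 2) to 107, and from 0 (without SvbREP library 3) to 10. The replicate block changed no member's call other than MtnC's. The causes were not tested.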
